A study of Mus musculus with 11 samples.

Results

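The Peg3 and Igf2r-Airn imprinted domains were described through 7 genes, Peg3, Usp29 and Zim1 on mouse chromosome 7 and Airn, Igf2r, Slc22a2 and Slc22a3 on chromosome 17. Each gene was taken with 5 kb added on both sides, and its CpG methylation calls and histone-mark peaks were read in every library. The 7 genes are part of 49554 in the RefSeq table for chromosomes 1 to 19 and X. Their intervals held 645 of the 2526718 genomic 1-kb windows with a CpG.

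CUT&Tag-BS directs a transposase to a histone mark with an antibody and then bisulfite converts the released DNA, so that each read reports methylation on a fragment recovered with that mark. All 11 samples were E14 mouse embryonic stem cells of 129/Ola background, kept in serum with leukemia inhibitory factor, and differed in antibody, cell number and bisulfite treatment. The 8 bisulfite libraries were H3K4me1 and H3K9me3, each from 250000 cells and read in run 1 (35 bp) and run 2 (75 bp), and H3K27me3 from 4000, 20000, 100000 and 250000 cells. The 3 other samples were controls made without bisulfite, 1 per mark, used here for their peaks only. E14 is 1 cell line, and a call cannot be assigned to the maternal or paternal copy.

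Depth in methylation calls over all chromosomes ran from 378056 (H3K27me3, 4000 cells) to 37177077 (H3K27me3, 250000 cells). H3K4me1 had 4917718 calls in run 1 and 9690770 in run 2, and H3K9me3 had 2012835 and 6355757. The runs of a mark largely read the same molecules: where a CpG had 1 call in each H3K9me3 run, the state was the same at 95.9% of CpGs, against 83.5% for paired calls within run 2. Run 1 and run 2 were therefore counted as 1 library, no mark had a biological replicate in the comparisons, and each test compares a pair of libraries, not marks. For the line itself, an H3K4me1 peak lay within 5 kb of 7 of 7 pluripotency genes (Pou5f1, Nanog, Sox2, Klf4, Esrrb, Zfp42, Tdgf1), and an H3K27me3 peak lay near 1 of those 7 and 9 of 9 genes of other lineages, all 9 of which also had an H3K4me1 peak.

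In an imprinted domain one parental copy of a control region carries DNA methylation from the germ line, and genes around it are expressed from one copy. At both control regions studied here the methylated copy is known to be the maternal one, and H3K9me3 is known to accompany such methylation through ZFP57 and TRIM28, while H3K27me3, written by Polycomb complexes, and H3K4 methylation are usual on unmethylated CpG-rich DNA. Peg3, a zinc-finger protein, and Usp29, a deubiquitinase, are transcribed in opposite directions from the paternal copy, and Zim1, another zinc-finger gene, is maternally expressed. Airn is a long noncoding RNA transcribed from the paternal copy across the start of Igf2r, the receptor that clears insulin-like growth factor 2, and the cation transporters Slc22a2 and Slc22a3 are known as placental targets of the same domain.

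The promoters below show the sequence on which the calls were made at 4 contrasting starts, each from 250 bases before to 50 after the annotated start, as given by RefSeq on GRCm38.p6. CpGs are in capitals. Peg3 (chr7:6730370-6730669, minus strand) also covers most of the Usp29 promoter, since the starts lie 164 bp apart. Airn (chr17:12741061-12741360, plus strand), Igf2r (chr17:12769657-12769956, minus strand) and Slc22a3 (chr17:12507655-12507954, minus strand) follow.
Peg3: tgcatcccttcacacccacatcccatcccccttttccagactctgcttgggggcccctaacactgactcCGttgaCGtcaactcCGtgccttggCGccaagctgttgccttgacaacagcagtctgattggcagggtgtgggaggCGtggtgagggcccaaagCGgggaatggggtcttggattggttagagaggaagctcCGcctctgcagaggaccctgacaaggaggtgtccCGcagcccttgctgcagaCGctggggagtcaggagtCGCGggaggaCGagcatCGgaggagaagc
Airn: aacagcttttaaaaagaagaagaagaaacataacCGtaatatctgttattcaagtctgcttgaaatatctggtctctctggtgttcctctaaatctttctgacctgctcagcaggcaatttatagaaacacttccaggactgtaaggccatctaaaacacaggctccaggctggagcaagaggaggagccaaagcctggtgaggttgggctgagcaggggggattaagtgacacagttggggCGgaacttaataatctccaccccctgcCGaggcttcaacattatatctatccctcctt
Igf2r: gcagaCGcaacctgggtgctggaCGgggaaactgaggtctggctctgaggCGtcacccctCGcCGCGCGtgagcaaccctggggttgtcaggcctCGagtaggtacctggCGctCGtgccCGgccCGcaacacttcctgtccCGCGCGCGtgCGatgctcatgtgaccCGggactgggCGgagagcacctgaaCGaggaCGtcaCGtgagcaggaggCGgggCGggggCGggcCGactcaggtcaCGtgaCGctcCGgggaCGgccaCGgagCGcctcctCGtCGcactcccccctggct
Slc22a3: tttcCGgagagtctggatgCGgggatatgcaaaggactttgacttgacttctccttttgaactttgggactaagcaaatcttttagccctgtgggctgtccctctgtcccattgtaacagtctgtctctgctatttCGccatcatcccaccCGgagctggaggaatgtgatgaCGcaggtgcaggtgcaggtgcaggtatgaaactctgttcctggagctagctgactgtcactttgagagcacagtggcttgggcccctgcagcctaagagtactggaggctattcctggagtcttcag

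These 300-base promoters held 13 CpGs at Peg3, 3 at Airn, 34 at Igf2r and 5 at Slc22a3, against a median of 7 over 32580 promoters. The other members held 17 (Usp29), 20 (Zim1) and 8 (Slc22a2). Over the 13 CpGs printed for Peg3, 32 of 36 H3K9me3 calls (run 2) were methylated, and 0 of 62 H3K27me3 calls from 250000 cells, which allows up to 4.84%. The 34 CpGs printed for Igf2r gave 58 methylated of 695 H3K27me3 calls. At Slc22a3, by contrast, the 5 printed CpGs were methylated in 71 of 84 H3K27me3 calls, and the low methylation of that promoter lay past the start, as described under its own values. The letters TGCCGC, bound by ZFP57 when methylated, and GCCATNTT, the core bound by YY1, were searched on both strands. They were present in 11.7% and 6.07% of all promoters of this length, and TGCCGC had 1 match each in Zim1 and Slc22a2. No other match fell in the 7 windows, which says only that these letters are not in them. The motifs can share their end bases, but no matches overlapped here, since GCCATNTT had none.

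At the shared start of Peg3 and Usp29, most H3K9me3 calls were methylated and few or no H3K27me3 and H3K4me1 calls were. Peg3 (chr7:6703892-6730462, minus strand) had 93 CpGs within 1000 bp of its start. H3K9me3 calls there were methylated in 76 of 90 (84.4%, 95% Wilson interval 75.6 to 90.5) in run 1 and 224 of 261 (85.8%) in run 2. H3K4me1 calls were methylated in 0 of 15 and 0 of 23, which allows up to 20% and 13.0%. H3K27me3 calls were methylated in 0 of 21 from 20000 cells, 0 of 101 from 100000 cells and 6 of 151 (3.97%) from 250000 cells, with no call from 4000 cells. The H3K9me3 runs lay far above every other library that had calls, and the H3K27me3 and H3K4me1 libraries all had intervals reaching at most 20.4%. Intervals and limits cover counting error only, since reads without molecular identifiers are not independent molecules.

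H3K9me3 run 2 exceeded H3K4me1 run 2 at the Peg3 start by 85.8 percentage points (95% interval 70.7 to 89.5) and H3K27me3 from 250000 cells by 81.9 points (75.4 to 86.1). It was as large on shared CpGs: over the 10 CpGs with a call in both libraries it was 87.5 points against H3K4me1, and over 52 such CpGs it was 83.4 points against H3K27me3. Single CpGs split the same way. Of the 52 CpGs with at least 3 H3K9me3 calls in run 2, 45 were methylated in at least 75% of them and 1 in at most 25%, whereas all 15 CpGs with 3 H3K27me3 calls (250000 cells) were at or below 25%.

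**Figure D1:**
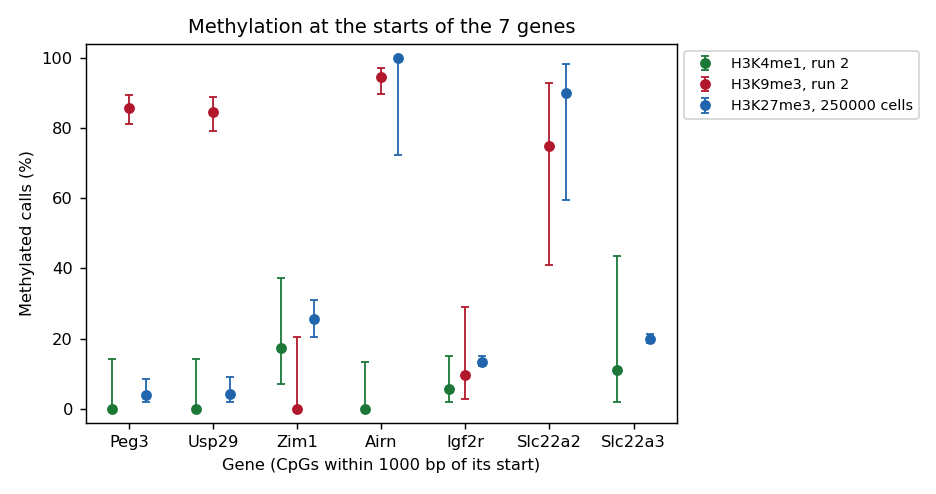
Methylated calls (%) within 1000 bp of the start of each of the 7 genes, for H3K4me1 run 2, H3K9me3 run 2 and H3K27me3 from 250000 cells. Points are shares of calls and bars are 95% Wilson intervals, drawn where a library had at least 5 calls. H3K9me3 stands near 85% at Peg3 and Usp29 and at 94.6% at Airn, while H3K4me1 is at 0 at those 3 starts.

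The Usp29 start (chr7:6730559-6967220, plus strand) shares most of these CpGs, so its values are not a second observation. H3K9me3 calls within 1000 bp were methylated in 60 of 72 and 181 of 214 (84.6%), H3K4me1 calls in 0 of 15 and 0 of 23, and H3K27me3 calls in 0 of 19, 0 of 99 and 6 of 140 (4.29%) from 20000, 100000 and 250000 cells.

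The peaks of the marks lay mainly on opposite sides of the Peg3 start, and the unified peaks overlapped in the middle. The H3K9me3 peak (chr7:6727252-6730948, 3697 bp, the authors' peaks of all H3K9me3 samples unified) extended 3168 bp into Peg3 and 529 bp towards Usp29. The H3K27me3 peak (chr7:6730173-6732753, 2581 bp) extended 247 bp into Peg3 and 2334 bp into Usp29. The H3K9me3 peak was called in run 1 (3103 bp), run 2 (3296 bp) and the control without bisulfite (3637 bp). The H3K27me3 peak was called only from 250000 cells (2581 bp) and in its control (1260 bp), not from 4000, 20000 or 100000 cells. The peak of the H3K27me3 control (chr7:6731433-6732692) did not reach the H3K9me3 peak, so the overlap rests on the 250000-cell library. Of 32580 promoters, 58 (0.178%) had peaks of both marks within 1000 bp, and Peg3 and Usp29 were among them.

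In the 776 bp under both peaks, 64 of 80 H3K9me3 calls of run 2 (80%, 70.0 to 87.3) and 0 of 83 H3K27me3 calls from 250000 cells were methylated. In the rest of the H3K9me3 peak, within Peg3, the counts were 261 of 293 (89.1%) and 0 of 54. In the rest of the H3K27me3 peak, within Usp29, they were 35 of 38 (92.1%) and 28 of 89 (31.5%, 22.8 to 41.7). H3K27me3 methylation therefore differed along its own peak, and H3K9me3 methylation in run 2 was at or above 80% in all 3 stretches. In run 1 the 776 bp had 21 of 28 H3K9me3 calls methylated (75%, 56.6 to 87.3).

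Along 1-kb steps from the Peg3 start into the Usp29 side, H3K27me3 calls from 250000 cells were methylated in 6 of 91 (6.59%), 13 of 46 (28.3%), 9 of 10 and 11 of 11. From 100000 cells the first 3 of these steps gave 0 of 46, 17 of 37 (45.9%) and 9 of 9. Both libraries thus rose from near 0 to almost full methylation within 3 kb on that side. Into Peg3 they stayed low, at 0 of 59, 0 of 12 and 0 of 8 (250000 cells) over the first 3 steps, where H3K9me3 run 2 had 188 of 221 (85.1%), 66 of 71 (93.0%) and 45 of 50 (90%).

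**Figure D2:**
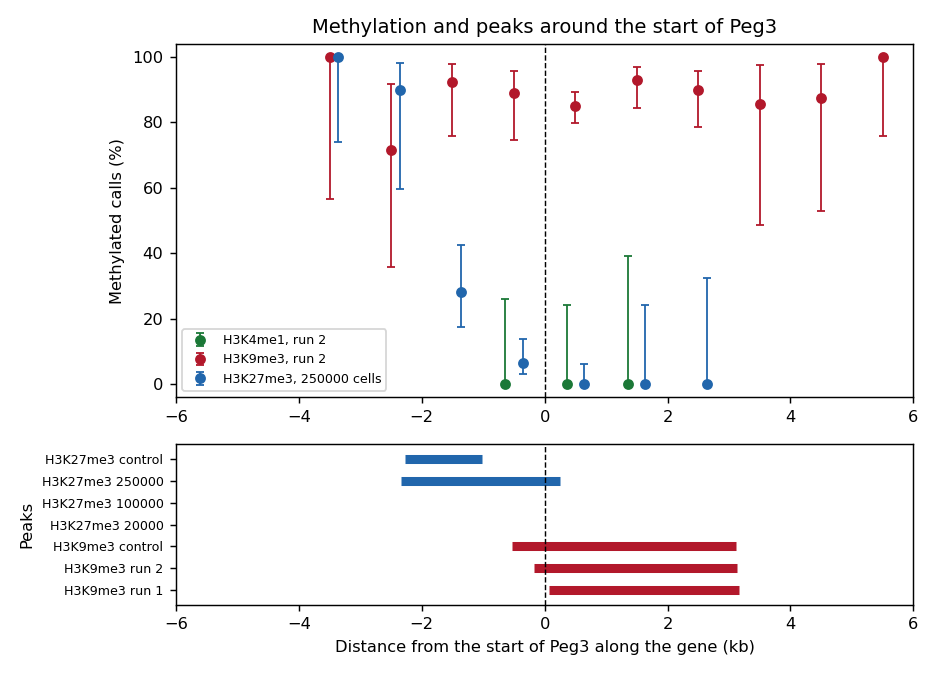
Upper panel, methylated calls (%) in 1-kb steps around the Peg3 start for H3K4me1 run 2, H3K9me3 run 2 and H3K27me3 from 250000 cells, with 95% Wilson bars, drawn where a step had at least 5 calls; negative distances lie on the Usp29 side. Lower panel, the authors' peaks per sample, with cell numbers for H3K27me3; no H3K4me1 list and not the list from 4000 cells had a peak here. The H3K9me3 bars lie mainly to the right of the start, the H3K27me3 bars mainly to the left.

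The strength of each mark was read from calls per CpG, since the peak lists carry no score. At the Peg3 start, H3K9me3 run 2 gave 9.51 times the calls per CpG of its library as a whole and H3K27me3 (250000 cells) 0.933 times. H3K4me1 run 2 gave 0.545 times. Relative to CpGs outside the peaks of the same mark, a base chosen after seeing the data, these were 13.7, 4.94 and 1.60 times. The unmethylated H3K4me1 calls at Peg3 thus came from a level near that outside peaks, and no H3K4me1 peak overlapped any of the 7 intervals in any list, although 22.0% of promoters had one. The part of fragments recovered without the mark in these calls was not tested.

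**Figure D3:**
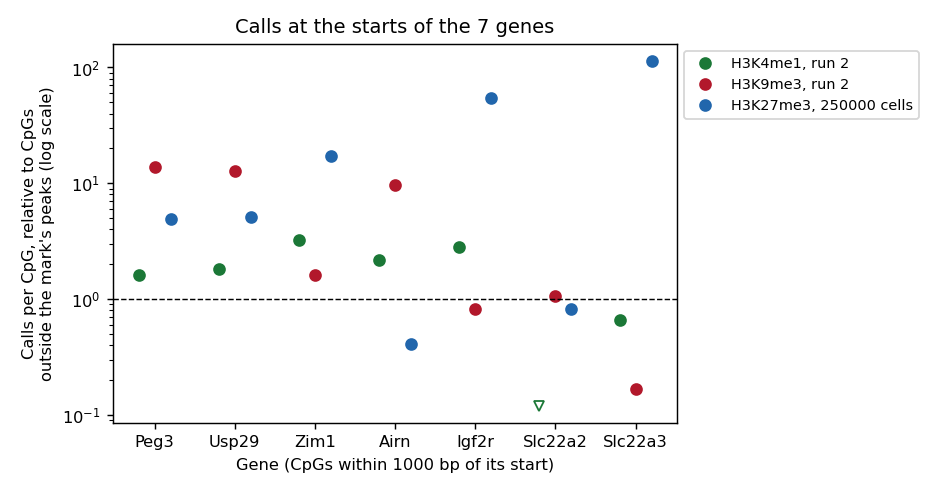
Calls per CpG within 1000 bp of each start, divided by calls per CpG outside the peaks of the same mark (log scale; the dashed line is 1), for H3K4me1 run 2, H3K9me3 run 2 and H3K27me3 from 250000 cells. The open triangle marks no H3K4me1 call at Slc22a2. H3K9me3 is high at Peg3 and Usp29 and at Airn (9.60), and H3K27me3 is highest at Slc22a3 (113) and Igf2r (54.0).

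Zim1 (chr7:6674444-6696540, minus strand) carried H3K27me3 and low to intermediate methylation, with no H3K9me3 peak. Its H3K27me3 peak (chr7:6695779-6697289, 1511 bp) was called from 100000 and 250000 cells and in the control. Within 1000 bp of the start (46 CpGs), H3K27me3 calls were methylated in 0 of 6, 6 of 21, 46 of 253 (18.2%) and 66 of 259 (25.5%, 20.6 to 31.1) in order of cell number. H3K4me1 calls were methylated in 1 of 11 and 4 of 23 (17.4%), and H3K9me3 calls in 5 of 19 (26.3%) in run 1 and 0 of 15 in run 2. The intervals overlapped between libraries, apart from H3K9me3 run 2 (upper bound 20.4%) and H3K27me3 from 250000 cells, and the runs of H3K9me3 differed by more from each other than either did from H3K4me1. Single CpGs varied in H3K27me3 methylation, whereas all those at Peg3 were low: of 33 CpGs with at least 3 calls from 250000 cells, 17 were at most 25% methylated, 10 lay between and 6 were at least 75%.

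Usp29 also held an H3K27me3 peak deep in the gene, 27.2 kb from its start (chr7:6757756-6767525, 9770 bp), which was called from 100000 and 250000 cells and in the control, and as 2 smaller peaks from 20000 cells. Its calls were methylated in 54 of 63 (85.7%, 75.0 to 92.3) from 20000 cells, 223 of 382 (58.4%, 53.4 to 63.2) from 100000 cells and 319 of 517 (61.7%, 57.4 to 65.8) from 250000 cells. A single window, chr7:6760001-6761000, held 16 of the 77 CpGs of the peak and was singled out after its values were seen. It took 8, 134 and 168 of those calls, or 12.7%, 35.1% and 32.5%, and was methylated in 4 of 8, 19 of 134 (14.2%) and 32 of 168 (19.05%). The rest of the peak was methylated in 50 of 55 (90.9%), 204 of 248 (82.3%) and 287 of 349 (82.2%). Without that window the intervals of the libraries overlapped, but the window was chosen after its values were seen, so this overlap is not a test. Outside the window the peak was mostly methylated DNA carrying H3K27me3 calls. H3K4me1 calls in the window were methylated in 2 of 12 and 5 of 24 (20.8%). A further small H3K27me3 peak in Usp29 (chr7:6937899-6938899), called from 250000 cells only, had 36 of 42 calls methylated (85.7%).

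At the start of Airn, most H3K9me3 calls were again methylated and no H3K4me1 call was, but there were few H3K27me3 calls. Airn (chr17:12741311-12859884, plus strand) starts 28.4 kb inside Igf2r, on the opposite strand, and had 75 CpGs within 1000 bp. H3K9me3 calls were methylated in 54 of 58 (93.1%) in run 1 and 139 of 147 (94.6%, 89.6 to 97.2) in run 2. H3K4me1 calls were methylated in 0 of 14 and 0 of 25, which allows up to 21.4% and 12%. No H3K4me1 list had a peak at Airn. In run 2 these calls came at 0.735 times the library's calls per CpG and 2.16 times the level outside peaks. H3K27me3 had no call from 4000 or 20000 cells, 9 of 9 methylated from 100000 cells and 10 of 10 from 250000 cells. Those few H3K27me3 calls, at 0.0766 times the library's calls per CpG and 0.406 times the level outside peaks, were thus all methylated, unlike those at Peg3.

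The Airn difference between H3K9me3 and H3K4me1 (run 2) was 94.6 points (95% interval 80.4 to 97.2), and 93.9 points over the 13 CpGs with a call in both. Of 23 CpGs with at least 3 H3K9me3 calls, 20 were at least 75% methylated and none at most 25%. Among 5215 promoters with 10 calls in both libraries, Airn had the largest difference, Peg3 ranked 8 and Usp29 9, and 45 promoters (0.863%) differed by over 60 points in that direction. Airn also ranked 1 of 15294 promoters for H3K27me3 (250000 cells) above H3K4me1, with its 10 methylated calls of 10, and 4435 of 5460 for H3K9me3 above H3K27me3, a difference of -5.44 points. At Airn the H3K4me1 level was thus below that of both others, but neither H3K4me1 nor H3K27me3 had a peak there, and H3K27me3 had only the minimum of 10 calls. Outside their own peaks genome-wide, H3K27me3 (250000 cells) was 70.7% methylated and H3K4me1 run 2 46.9%. These ranks describe pairs of libraries, and some promoters overlap.

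The Airn H3K9me3 peak lay on the transcribed side of the start. The unified peak (chr17:12741208-12746722, 5515 bp) began 103 bp before the start and ran 5412 bp into Airn. It was 2718 bp in run 1, 5059 bp in run 2 and 4211 bp in the control. H3K9me3 calls in it were methylated in 110 of 115 (95.7%) and 263 of 275 (95.6%), H3K4me1 calls in 1 of 23 (4.35%) and 6 of 44 (13.6%, 6.40 to 26.7), and H3K27me3 calls in 11 of 11 and 15 of 15 from 100000 and 250000 cells. By 1-kb step from the start, H3K4me1 run 2 had 0 of 25 and 2 of 15 methylated, against 129 of 136 (94.9%) and 62 of 62 for H3K9me3. The 3 CpGs of the printed Airn promoter carry little of this: 4 of 5 H3K9me3 calls (run 2) on them were methylated, and the calls come from CpGs past the start.

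**Figure D4:**
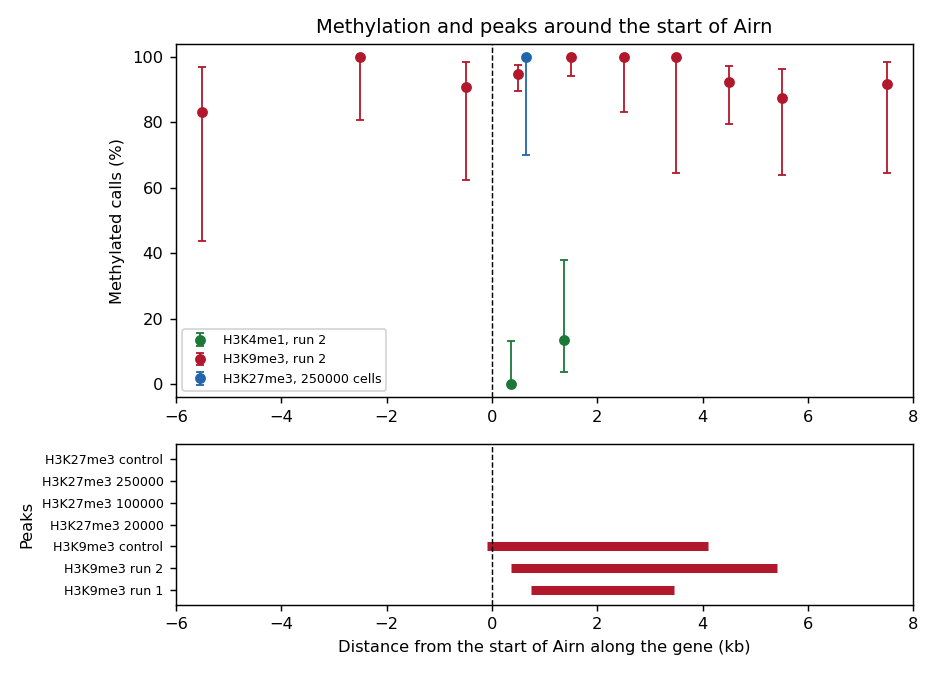
Upper panel, methylated calls (%) in 1-kb steps around the Airn start for H3K4me1 run 2, H3K9me3 run 2 and H3K27me3 from 250000 cells, with 95% Wilson bars, drawn where a step had at least 5 calls. Lower panel, the authors' peaks per sample; no H3K27me3 or H3K4me1 peak fell in the span. H3K4me1 lies at 0 and 13.3% in the first steps of Airn, where H3K9me3 is at 94.9% and 100%.

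Few member windows could be tested. Each 1-kb window of the genome with at least 10 calls in both libraries was tested with a two-sided Fisher's exact test, adjusted with Benjamini-Hochberg over all such windows, and called at an adjusted p under 0.05 and a difference of at least 20 points. Between H3K9me3 and H3K4me1 (run 2 of each), 3 of 6 member windows were called with H3K9me3 higher, against 6.78% of 14485 windows genome-wide, and none was called lower (0.159% genome-wide). Between H3K9me3 (run 2) and H3K27me3 (250000 cells), 5 of 10 were called higher, against 2.50% of 16623, and none lower (0.289% genome-wide). Neighbouring windows of one start are not independent of each other. Fisher's exact test also takes each call as independent, although calls can share a read or a molecule, so its p-values can be too small. The window holding the Peg3 and Usp29 starts had too few H3K4me1 calls, and that holding the Airn start too few H3K27me3 calls, to be tested in those comparisons.

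The 3 windows called against H3K4me1 were chr7:6729001-6730000 in Peg3, next to the start (159 of 178 methylated, 89.3%, against 0 of 18, adjusted exact p = 3.8e-13), chr17:12741001-12742000 at Airn (58 of 62, 93.5%, against 0 of 14, adjusted exact p = 8.96e-10) and chr17:12742001-12743000 in Airn (132 of 136, 97.1%, against 1 of 25, adjusted exact p = 1.18e-20). Those called against H3K27me3 were 5 consecutive windows of the Peg3 and Usp29 start. From Peg3 towards Usp29, H3K9me3 had 24 of 29, 159 of 178, 97 of 117 (82.9%), 16 of 17 and 20 of 22 (90.9%) methylated. H3K27me3 had 0 of 10, 0 of 37, 0 of 85, 12 of 46 (26.1%) and 16 of 41 (39.0%). The adjusted exact p was lowest in the third (7.18e-35) and highest in the fifth (0.00391). So the difference was largest within Peg3 and narrowed towards Usp29, where H3K27me3 methylation was higher.

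The remaining windows tested were not called. At the Zim1 start H3K9me3 had 0 of 15 and H3K4me1 4 of 23 (adjusted exact p = 0.541), and H3K27me3 had 51 of 243 (21.0%; adjusted exact p = 0.506 against H3K9me3). At the Igf2r start the counts were 1 of 18, 3 of 54 and 109 of 1950 (5.59%), and the libraries differed by at most 0.03 points. In Slc22a2 (chr17:12614001-12615000), H3K9me3 had 19 of 21 and H3K4me1 10 of 10. The other 3 windows tested against H3K27me3 lay inside Usp29, Igf2r and Airn, and both libraries were at 90% or above in each.

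H3K27me3 from 250000 cells did not differ detectably from H3K4me1 (run 2) in the 4 member windows tested: 0 were called higher (1.09% of 57920 genome-wide) and 0 lower (0.463%), and Fisher's exact test gave 0 at an unadjusted p under 0.05. Those windows were at Peg3 (0 of 37 against 0 of 18), in the low window of Usp29 (32 of 168 against 5 of 24) and at the starts of Zim1 and Igf2r, with differences of at most 3.60 points. Between H3K27me3 from 100000 and 250000 cells, 0 of 46 member windows were called in either direction (0.0103% genome-wide each way). Fisher's exact test gave 6 at an unadjusted p under 0.05, with a lowest adjusted exact p of 0.109. The genome-wide share at that unadjusted p is not given here, so those 6 cannot be set against other windows.

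Igf2r (chr17:12682406-12769706, minus strand) had a broad H3K27me3 peak over its start with a narrow unmethylated core. The unified peak (chr17:12766593-12773001, 6409 bp) was 3664, 4947 and 5880 bp wide from 20000, 100000 and 250000 cells and 6245 bp in the control. Within 1000 bp of the start (125 CpGs), H3K27me3 calls were methylated in 6 of 35 (17.1%), 42 of 331 (12.7%), 217 of 1549 (14.0%) and 298 of 2216 (13.4%, 12.1 to 14.9) from 4000, 20000, 100000 and 250000 cells. H3K4me1 calls were methylated in 1 of 17 and 3 of 54 (5.56%), and H3K9me3 calls in 1 of 22 and 2 of 21 (9.52%). The intervals of the 4 H3K27me3 libraries overlapped, and no library was above 17.1%. The split between marks seen at Peg3 and Airn was thus not seen here, but H3K9me3 had no peak at the Igf2r start. Its calls per CpG there were 2.655 (run 1) and 0.823 (run 2) times the level outside its peaks. At Peg3 and Airn run 2 gave 13.7 and 9.60 times. These few H3K9me3 calls cannot show whether fragments with that mark differ at Igf2r.

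By 1-kb step from before the start into Igf2r, H3K27me3 calls from 250000 cells were methylated in 174 of 196 (88.8%), 245 of 892 (27.5%), 53 of 1324 (4.0%) and 111 of 117 (94.9%). From 100000 cells these were 105 of 108 (97.2%), 175 of 554 (31.6%), 42 of 995 (4.22%) and 85 of 91 (93.4%). The methylated flanks were inside the H3K27me3 peak in both libraries. Of 125 CpGs near the start, 106 were at most 25% methylated and 10 at least 75% in the 250000-cell library. Calls per CpG there were 10.2 times the library average and 54.0 times the level outside peaks.

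Slc22a3 (chr17:12419972-12507704, minus strand), a transporter of organic cations, had the most H3K27me3 calls per CpG of the 7 starts in the 250000-cell library, 21.4 times the library average and 113 times the level outside peaks. Its peak (chr17:12503496-12509843, 6348 bp) was called from 20000, 100000 and 250000 cells and in the control. Calls within 1000 bp (88 CpGs) were methylated in 5 of 12, 92 of 623 (14.8%, 12.2 to 17.8), 506 of 2395 (21.1%) and 654 of 3277 (19.96%, 18.6 to 21.4) in order of cell number. H3K4me1 gave 1 of 2 and 1 of 9 methylated calls, and H3K9me3 0 of 4 and 0 of 3, so no comparison between marks was possible at this depth.

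The low stretch of Slc22a3 lay in the first 1 kb past the start. From before the start into the gene, the 250000-cell calls were methylated in 27 of 29 (93.1%), 279 of 320 (87.2%), 375 of 2957 (12.7%) and 139 of 164 (84.8%). The 100000-cell calls were methylated in 23 of 23, 175 of 198 (88.4%), 331 of 2197 (15.1%) and 128 of 141 (90.8%), and the 20000-cell calls in 20 of 20, 72 of 603 (11.9%) and 19 of 20 over the last 3 steps. The printed Slc22a3 sequence lies mainly before the start, and its 5 CpGs were methylated in 71 of 84 calls. In the window chr17:12507001-12508000 the level was 14.3% of 2063 calls from 100000 cells and 10.7% of 2723 from 250000 cells (Fisher's exact test, adjusted exact p = 0.109).

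**Figure D5:**
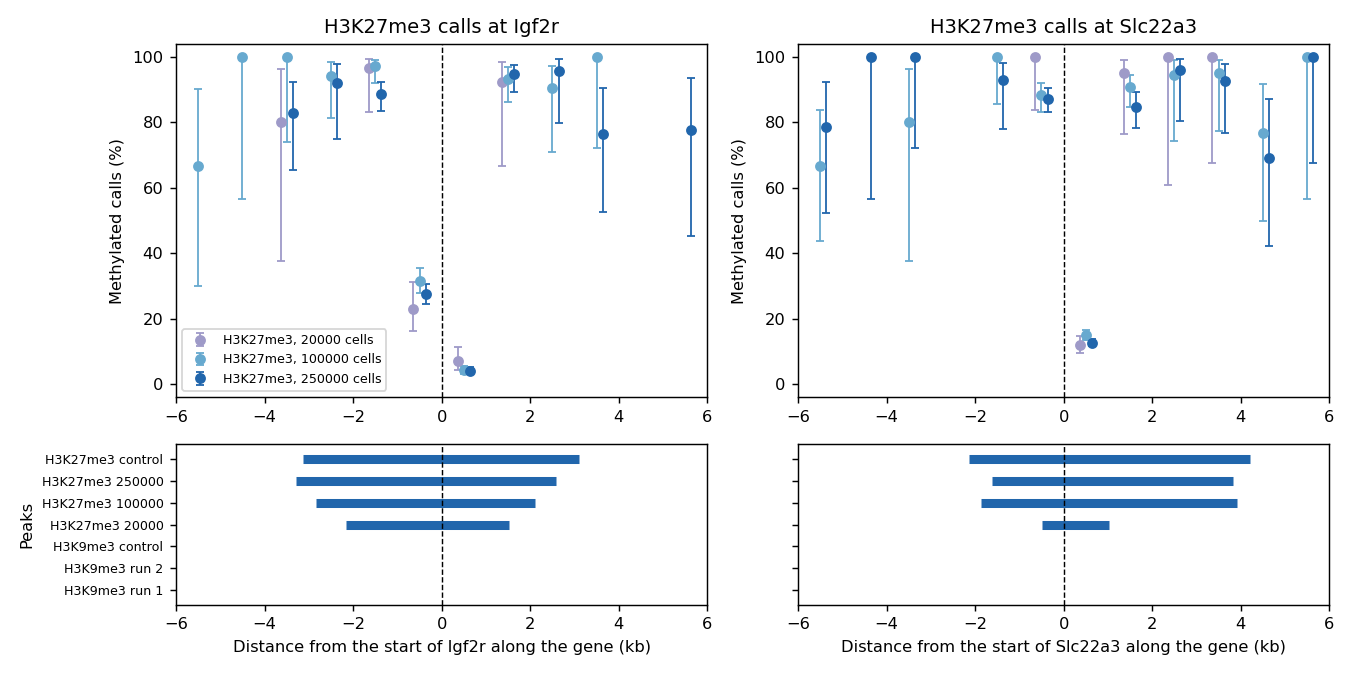
Upper panels, methylated H3K27me3 calls (%) in 1-kb steps around the starts of Igf2r and Slc22a3, from 20000, 100000 and 250000 cells, with 95% Wilson bars, drawn where a step had at least 5 calls. Lower panels, the authors' peaks per sample. Low methylation is limited to the steps next to the start (4.0% and 12.7% past it from 250000 cells), and the H3K27me3 peaks extend over methylated steps on both sides.

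Slc22a2 (chr17:12584189-12628489, plus strand), also a cation transporter, had neither an H3K27me3 nor an H3K4me1 peak, and its start was little covered. Within 1000 bp (37 CpGs), H3K9me3 calls were methylated in 2 of 2 and 6 of 8, H3K27me3 calls in 9 of 10 from both 100000 and 250000 cells, and H3K4me1 had no call. Inside the gene H3K9me3 had 3 unified peaks, of 1001, 2032 and 1598 bp, of which 3 were called in run 2, 2 in the control and 0 in run 1. Their run 2 calls were methylated in 23 of 26 (88.5%), 64 of 67 (95.5%) and 21 of 30 (70%). The peaks of Slc22a2 rest on fewer lists than those of Peg3 and Airn, which were called in all 3 H3K9me3 samples.

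Over whole genes with 5 kb on each side, the H3K9me3 library (run 2) was methylated in every member: 88.3% at Peg3 (528 calls), 86.4% at Usp29 (791), 80.8% at Zim1 (151), 87.9% at Airn (539), 91.8% at Igf2r (535), 86.4% at Slc22a2 (301) and 82.0% at Slc22a3 (128). Outside its peaks the same library was 80.3% methylated genome-wide. The H3K27me3 library from 250000 cells, as methylated over all calls, ran from 25.3% at Peg3 (277 calls) through 29.3% at Igf2r, 30.0% at Slc22a3, 35.8% at Airn, 42.2% at Zim1 and 62.1% at Usp29 to 80.3% at Slc22a2 (71 calls). Genome-wide this library was 24.6% methylated in its own peaks and 70.7% outside them. The intervals of Peg3, Igf2r and Slc22a3 overlapped, as did those of Airn and Zim1, Airn was above Slc22a3, and Usp29 and Slc22a2 were each above all genes before them. This order depends on weighting by calls. As the mean of single CpG levels the values were 33.6% at Peg3, 62.2% at Igf2r, 71.2% at Slc22a3, 69.7% at Airn, 71.4% at Zim1, 69.6% at Usp29 and 85.5% at Slc22a2, so Usp29 was no longer above Zim1, Airn or Slc22a3. Over CpGs with at least 5 calls, Peg3 was at 10% and Zim1 at 17.5%. The Airn and Igf2r intervals shared 39 windows, including the Igf2r start, which supplies most of the H3K27me3 calls of both. H3K4me1 run 2 had between 14 and 145 calls per gene and was lowest at Peg3 (2 of 38, 5.26%) and highest at Slc22a2 (11 of 14, 78.6%).

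Other genes with a promoter known to be methylated on the maternal copy were set beside the members as a count. Of 12 listed (Kcnq1ot1, Snrpn, Mest, Peg10, Plagl1, Grb10, Zrsr1, Nnat, Mcts2, Inpp5f, Impact and Peg13), 9 had an entry in the promoter table, which need not be the methylated one of a gene with several. Snrpn, Mest and Grb10 had several entries, and 1 was kept for each, that with the most H3K4me1 run 2 calls. For Snrpn the kept entry was the only one with an H3K9me3 peak. No such choice was made among all promoters, so their shares are not a like comparison. Of the 9 genes, 6 had an H3K9me3 peak within 1000 bp, against 2.16% of all promoters, and 3 had an H3K27me3 peak, against 25.1%. Only 1, Kcnq1ot1, had both, and an H3K4me1 peak as well, which Peg3 lacked. Of the 6 with 10 calls in both libraries, 4 had H3K9me3 above H3K4me1 by over 60 points, with a median difference of 77.3 points and a range from -6.45 to 86.9, against a median of -0.61 over all 5215 promoters. The other 2 were Grb10 and Inpp5f, whose kept entries were at most 6.45% methylated in each of the 3 main libraries. The Grb10 entry that was not kept had 433 of 1054 H3K27me3 calls from 250000 cells methylated (41.1%). The values of Peg3 (85.8) and Usp29 (84.6) lay inside that range and that of Airn (94.6) above it.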

How the data were processed

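CUT&Tag-BS was carried out for H3K4me1, H3K9me3 and H3K27me3. Per the submitters' processing notes, cutadapt 1.12, Bismark 0.23.0, Bowtie2 2.3.0, HOMER 4.10.3 and bedtools 2.29.2 were used with build mm10; their parameters are not given in the sources used here. The authors deposited counts of methylated calls and of all calls for 21908008 CpGs per bisulfite library, and 11 peak lists with 3 unified lists, which hold coordinates without a score. Depth is given with the study's samples. Gene intervals, starts and promoter sequences were taken from RefSeq (GRCm38.p6).

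Calls were summed per gene with 5 kb on each side, per 1000 bp on each side of a start and per 1-kb window. Wilson 95% intervals were computed, and for a share of 0 the limit of 3 counts. Windows with at least 10 calls in both libraries were compared with a two-sided Fisher's exact test (numba 0.67.0, checked against scipy 1.17.1 and tested on simulated data), with Benjamini-Hochberg adjustment over the genome. The interval of a difference between shares combined their Wilson intervals. Run 2 and 250000 cells were the main libraries. Alternatives were other call minimums, windows, flanks, thresholds, run 1, summed runs, a replicate block and 100000 cells.

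The text names all 7 genes, the window at each start and up to 6 called windows per comparison with the largest difference. The members, lists and motifs were chosen with earlier results of these data known.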

Additional observations from a re-analysis of the deposited data

How the results depend on the processing

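The number of member windows with H3K9me3 above H3K4me1, 3, became 5 with at least 5 calls, 1 with at least 20 calls and 5 with the grid moved by 500 bp, and was 2 to 3 with run 1 in place of run 2 of either mark. With the run number as a replicate block it was 4, but the runs share molecules and are not replicates, so this is not a paired analysis of samples. The number above H3K27me3, 5, became 3 with at least 20 calls, 3 with windows of 2000 bp and 3 with H3K9me3 run 1 in place of run 2. The number with H3K27me3 above H3K4me1, 0, became 1 with at least 5 calls and 1 with windows of 2000 bp. These alternatives also changed how many member windows were tested (6 to 9, 1 and 8 for the first 3; 10 to 3, 16 and 6 for the next 3; 4 to 10 and 7 for the last 2). The share of windows called genome-wide moved as well. For the first 3 it was 2.73%, 15.4% and 6.89%, against 6.78% in the main setting. For the next 3 it was 7.55%, 2.09% and 3.79%, against 2.50%, and for the last 2 it was 0.538% and 3.94%, against 1.09%. With run 1 of H3K4me1 or of H3K9me3 it was 4.90% (4 member windows tested) and 8.97% (6), and with the replicate block 14.3% (7). No member window was called in the opposite direction under any alternative run. The 18 recomputed differences at the Peg3 and Airn starts kept direction and size within their intervals. Gene levels moved beyond their intervals in 22 of 54 recomputations, with the H3K27me3 order of genes lost when single CpGs were weighted equally, and promoter levels in 14 of 60. Calls per CpG moved in 18 recomputations and stayed the same in 24, and peak counts moved in 4 and stayed the same in 38. The unified H3K27me3 peaks of Peg3 and Zim1 were narrower than the median of their list (2962 bp). Neither was left when only wider peaks were counted. Depth limited Slc22a2, and H3K4me1 and H3K9me3 at Slc22a3, to at most 10 calls per library at the start.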

Other observations

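Between Slc22a3 and Slc22a2, outside the gene intervals, lay an H3K9me3 peak wider than any in the 7 genes (chr17:12556619-12568695, 12077 bp), 48.9 kb before the start of Slc22a3 and 15.5 kb before that of Slc22a2. Its H3K9me3 calls were methylated in 137 of 155 (88.4%) in run 1 and 459 of 510 (90.0%) in run 2. H3K4me1 had no call in it, and H3K27me3 had 10 of 18 and 5 of 8 methylated calls from 100000 and 250000 cells.

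The neighbouring genes Zim2, Zim3, Plg and Mas1 had no H3K9me3 or H3K4me1 peak in their bodies, Zim2 had 1 H3K27me3 peak and Mas1 had 2. The Mas1 peaks lie within Airn (chr17:12845973-12846973 and chr17:12850074-12852724), and their H3K27me3 calls from 250000 cells were methylated in 26 of 26 and 68 of 79 (86.1%). The first was called only in the control without bisulfite, the second from 100000 and 250000 cells and in the control. Over gene bodies, H3K27me3 calls from 250000 cells were methylated in 80.4% at Zim2 (51 calls), 86.1% at Plg (158) and 87.2% at Mas1 (274), and H3K9me3 calls of run 2 in 78.1% at Zim2, 83.1% at Plg and 78.6% at Mas1.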
